A study of Mus musculus with 6 samples.

Results

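Fibronectin, the elastic fibre proteins and the matricellular proteins were represented by 10 genes, Fn1, Tnc, Tnxb, Thbs1, Thbs2, Sparc, Postn, Vcan, Fbn1 and Eln, which were chosen by symbol. All 10 were among the 16894 genes listed in the deposited table. Levels were measured by bulk RNA-seq in fibroadipogenic progenitors (FAPs), mesenchymal cells of skeletal muscle that can become fibroblasts and adipocytes, isolated from young male and female C57BL/6 mice, 3 to 6 months old, and grown in culture with serum and bFGF. The 3 libraries of senescent FAPs came from cultures exposed to 20 μM of etoposide, a topoisomerase inhibitor that breaks DNA, for 48 h and then kept for 5 days in normal medium. The 3 libraries of control FAPs were labelled non-senescent, and the labels name no vehicle. Both groups came from cells sorted for SCA-1 and against CD45, CD31 and integrin alpha-7, of the same strain. The paper names no allele that differed between them. Nothing in the labels says whether the replicates came from separate animals, so p values measure the spread between these libraries.

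Fibronectin is laid down by cells as fibrils that connect integrins to the rest of the matrix. Elastic fibres consist of elastin deposited on a scaffold of fibrillin microfibrils. Matricellular proteins, such as thrombospondins, tenascins, SPARC and periostin, sit in the matrix mainly as regulators of adhesion, growth factors and collagen assembly. FAPs are a main source of matrix in skeletal muscle, where excess deposition is known as fibrosis.

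Of the 10 genes, 1 was higher and 2 were lower in senescent compared to control FAPs at an adjusted p under 0.05 (limma on log2(CPM + 0.5), Benjamini-Hochberg adjustment over 14776 genes tested). Tnxb rose, and Fbn1 and Tnc fell. Among all genes tested, 46.1% passed the same threshold, 21.8% as higher and 24.3% as lower. The same 3 genes passed the threshold that the study used for its volcano plot, an unadjusted p under 0.01 with a log2 fold change beyond 1. It was applied here to limma, whereas the study used edgeR. Of all genes tested, 10.8% passed it in limma, 6.93% as higher and 3.9% as lower. The 3 control and 3 senescent libraries did not overlap for 4 of the 10 genes, Tnxb as higher and Fbn1, Tnc and Thbs1 as lower, against 57.4% of all genes tested, 26.5% as higher and 30.9% as lower. The median log2 fold change of the 10 genes was -0.45, against -0.03 for all genes tested. With the replicate number as a block, 4 of the 10 genes were lower, Sparc and Postn in addition to Fbn1 and Tnc. In that fit 3947 of all 14776 genes tested were lower. Without control replicate 2, 5 of the 10 genes were lower, Eln being the other, beside 3875 of all 14776 genes tested. Division by library totals alone, without edgeR's scaling factors, moved the median of all genes tested to 0.17 and the numbers of genes from 3218 higher and 3592 lower to 5056 higher and 1933 lower. Of the 10 genes, 2 were then higher, Tnxb and Vcan, and 2 were lower, Fbn1 and Tnc.

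Reads on genes ranged from 41412179 to 59912520 per library, so that 1 read was worth 0.0167 to 0.0225 CPM. The deposited CPM include scaling factors of 0.917 to 0.940 in control and 1.07 to 1.09 in senescent libraries, which lower senescent values relative to plain division by the library total. The FAP markers Pdgfra (126 to 254 CPM) and Ly6a, which encodes SCA-1 (220 to 678 CPM), were present in every library, whereas Lum was at 0.179 to 3.51 CPM. Of the 8 FAP markers, 5 were higher and 1, Col1a1, was lower in senescent FAPs, beside 21.8% higher and 24.3% lower among all genes tested. Lum, among the 5, met the filter of 0.5 CPM in 3 libraries only through senescent libraries, since only replicate 3 of control reached that level. The leukocyte marker Ptprc and the myogenic markers Pax7, Myf5, Myod1 and Myog were not listed. The other 3 of 7 myogenic markers were. Itga7, the gene of integrin alpha-7, had a mean of 11.1 CPM in control and 20.2 CPM in senescent libraries (limma, adjusted p = 0.00771). Des and Chrna1 did not pass the threshold (limma, adjusted p = 0.415 and 0.0508). The part of these markers in the results was not tested. The 5 of 8 leukocyte markers that were listed summed to 10.9 to 13.9 CPM in control and 26.5 to 32.2 CPM in senescent libraries, and their part in the results was not tested. The cell cycle inhibitor Cdkn1a was at 259.5 to 336 CPM in control and 1017 to 1060 CPM in senescent libraries, and the proliferation marker Mki67 at 100.5 to 247 CPM and 9.27 to 19.0 CPM. Cdkn2a, which encodes the cell cycle inhibitor p16, had 71.2, 56.5 and 129 CPM in control and 63.2, 102 and 104 CPM in senescent replicates 1, 2 and 3, with overlapping groups (limma, adjusted p = 0.765). These values are for the whole gene and do not separate its transcripts. By qPCR, the paper reports higher p16 expression in FAPs treated with etoposide than in control FAPs. In bulk RNA, fewer cells that express a gene and less RNA per cell cannot be told apart.

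The 10 genes together took several percent of the reads in every library. They received 6.16%, 5.55% and 5.73% of the reads on genes in control replicates 1, 2 and 3. Their share was 5.61%, 4.97% and 4.61% in senescent replicates 1, 2 and 3. The ranges overlapped, since senescent replicate 1 lay above control replicate 2. Fn1 had the highest mean CPM of all listed genes in both groups, and Thbs1 the second highest. Fn1, Thbs1, Sparc and Fbn1 held 82.0% to 85% of the reads of the 10 genes.

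**Figure D1:**
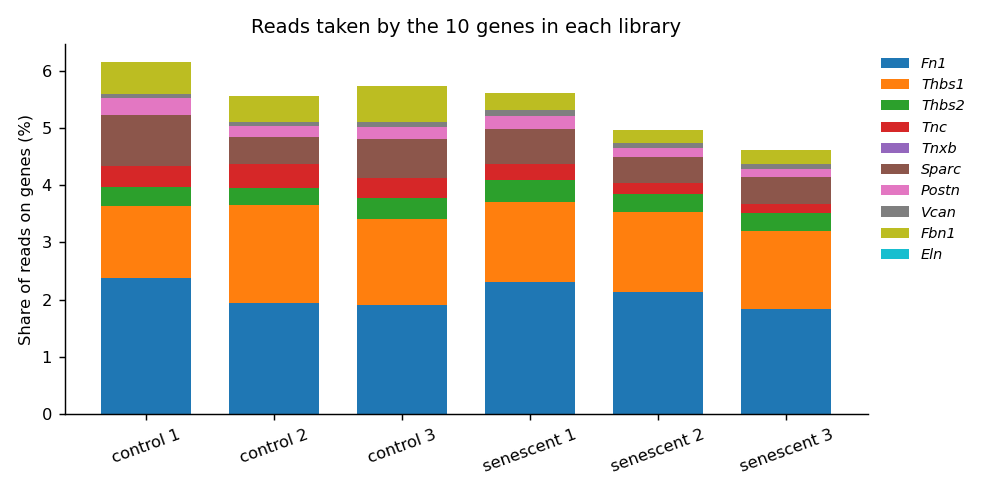
Share of reads on genes (percent, vertical axis) that each of the 10 genes took in each of the 6 libraries, stacked in 1 bar per library. The bars reach 5.55% to 6.16% in control and 4.61% to 5.61% in senescent libraries, and Fn1 and Thbs1 form the largest blocks in each.

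Levels of different genes were compared per kilobase of annotated exon. In control FAPs the highest levels were those of Thbs1 with 2652 ± 361 CPM per kilobase, Sparc with 1952 ± 589 and Fn1 with 1912 ± 262 (SD, n = 3 each), and the ranges of neighbours in this order overlapped. A middle group followed with Tnc at 516 ± 48.0, Thbs2 at 505 ± 56.5 and Fbn1 at 484 ± 87.8 CPM per kilobase, again with overlapping ranges. Postn at 289.8 ± 77.7, Vcan at 53.4 ± 2.60, Eln at 3.88 ± 2.52 and Tnxb at 0.293 ± 0.0429 CPM per kilobase each lay apart from the gene above. The set thus held both very abundant and scarce transcripts.

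In senescent FAPs the order of these levels was Thbs1 (2123 ± 28.2 CPM per kilobase), Fn1 (1664 ± 195), Sparc (1235 ± 204), Thbs2 (439.6 ± 51.9), Tnc (257 ± 76.5), Fbn1 (194 ± 28.1), Postn (193 ± 57.4), Vcan (60.5 ± 7.90), Tnxb (2.86 ± 0.776) and Eln (1.44 ± 0.0505; SD, n = 3 each). Only the neighbours Fn1 and Sparc, Tnc and Fbn1, and Fbn1 and Postn overlapped in range. Tnxb stood above Eln here and below it in control FAPs. The lengths are those of all annotated exons of a gene, and with the longest transcript in their place Sparc, at 3216 CPM per kilobase, came before Thbs1 in control FAPs, and in senescent FAPs Fn1 came before Thbs1, Postn before Tnc and Fbn1, and Eln (3.02) before Tnxb (2.86), so that the order of Tnxb and Eln in senescent FAPs depended on the length used.

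**Figure D2:**
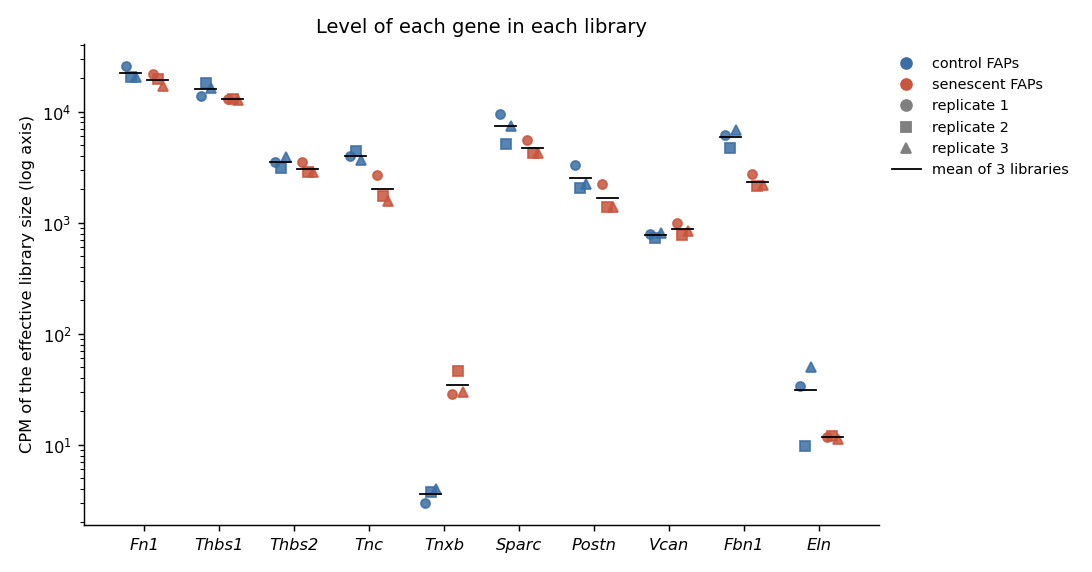
CPM of each gene (log axis) in each library, with control libraries in blue, senescent libraries in red, a symbol for each replicate number and a line at the mean of 3 libraries. The symbols of Tnxb, Tnc and Fbn1 lie fully apart between the groups, while control replicate 2 of Eln lies below all 3 senescent libraries.

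Tenascins are large multidomain glycoproteins of the matrix. Tenascin-C, encoded by Tnc, is known from development, wounds and inflamed tissue, and tenascin-X, encoded by Tnxb, from mature loose connective tissue, where it associates with collagen. The sequences before the annotated starts of both genes are shown because they moved in opposite directions, together with that of Postn, whose ratio of senescent to control varied little between the replicate numbers. Another RefSeq entry each for Tnc and Postn, at another start, is not shown. They were taken from RefSeq (GRCm38.p6), where 7 of the 10 genes had an entry. Capitals mark matches, on either strand, to a motif searched as plain letters. The TATA box was searched as TATAAA. For the GC box the letters were GGGCGG. The CCAAT box was searched by the letters of its name. For the AP-1 site they were TGANTCA.
Tnxb, chr17:34670285-34670534, plus strand: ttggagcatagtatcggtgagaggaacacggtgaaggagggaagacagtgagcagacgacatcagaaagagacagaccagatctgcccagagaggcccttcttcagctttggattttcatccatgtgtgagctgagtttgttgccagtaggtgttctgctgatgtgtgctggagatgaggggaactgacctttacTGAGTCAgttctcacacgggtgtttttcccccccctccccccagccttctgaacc
Tnc, chr4:64047016-64047265, minus strand: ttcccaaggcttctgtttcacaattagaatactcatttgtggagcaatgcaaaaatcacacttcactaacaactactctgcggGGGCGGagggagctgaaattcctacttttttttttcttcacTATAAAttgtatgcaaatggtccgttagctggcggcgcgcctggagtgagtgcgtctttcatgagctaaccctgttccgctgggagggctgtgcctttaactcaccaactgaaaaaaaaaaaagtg
Postn, chr3:54360857-54361106, plus strand: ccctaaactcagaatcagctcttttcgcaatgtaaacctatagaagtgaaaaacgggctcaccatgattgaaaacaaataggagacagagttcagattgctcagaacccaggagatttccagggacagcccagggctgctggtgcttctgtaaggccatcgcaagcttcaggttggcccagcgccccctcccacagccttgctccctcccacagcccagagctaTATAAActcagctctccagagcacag

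The window of Tnxb held 1 AP-1 match, 49 to 55 bases before the start, and no match to the other 3 motifs. The RefSeq start of Tnxb coincides with an ATG, so the table gives no leader for this gene and the window may not be where transcription begins. The window of Tnc held a GC box match 162 to 167 bases and a TATA box match 121 to 126 bases before its start. In Postn a TATA box match stood 21 to 26 bases before the start. Over all 32851 promoter entries, windows of the same 250 bases held a TATA box match in 12.4%, a GC box match in 32.7%, a CCAAT box match in 33.8% and an AP-1 match in 6.75%. No motif was present in all 3 windows. These matches describe letters only.

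Tnxb lies on chromosome 17 from 34670535 to 34719815 on the plus strand (GENCODE M21, GRCm38). It had 2.99, 3.73 and 4.0 CPM in control replicates 1, 2 and 3 and 28.8, 45.8 and 30.2 CPM in senescent replicates 1, 2 and 3. All senescent libraries were far above all control libraries. The log2 fold change was 3.1 (SE 0.20, 95% confidence interval 2.64 to 3.56, adjusted p = 1.21e-04 by limma), larger in size than that of 99.7% of all genes tested. Behind these values stood between 134 and 223 reads per control library and between 1342 and 2740 per senescent library. Libraries with the same replicate number differed 9.61-fold, 12.3-fold and 7.54-fold.

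Tnc lies on chromosome 4 from 63959785 to 64047015 on the minus strand. Its level was 4004, 4388 and 3643 CPM in control replicates 1, 2 and 3. In senescent replicates 1, 2 and 3 it was 2677, 1738 and 1575 CPM. Every senescent library lay below every control library, and senescent replicate 1 stood above the other 2. Tnc fell by 1.04 on the log2 scale (SE 0.22, 95% confidence interval -1.54 to -0.54, adjusted p = 0.00657 by limma). The change was -0.65 after quantile normalization, where Tnc was still called. Without control replicate 2, senescent replicate 2 or senescent replicate 3 it was -0.98, -0.96 or -0.89, short of the threshold of the volcano plot, while the adjusted p stayed under 0.05. Scaling by library totals alone and DESeq2 gave -0.83 and -0.97, also short of that threshold.

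Set against each other within a library, the level of Tnc per kilobase was 2103, 1850 and 1429 times that of Tnxb in control replicates 1, 2 and 3. The ratio was 146, 59.5 and 81.9 in senescent replicates 1, 2 and 3. This ratio does not depend on the scaling between libraries, and its groups lay fully apart (two-sided exact permutation tests of 3 libraries against 3 cannot go below p = 0.1). Tnc remained the more abundant tenascin transcript in all 6 libraries. Among the other tenascins, Tnr had no read in control replicates 1 and 2 and 0.0539 CPM in control replicate 3. Senescent replicates 1, 2 and 3 had 1.77, 1.49 and 1.15 CPM. Tnr reached 0.5 CPM, the level needed for testing, only in senescent libraries. Its test could not have come out as lower, and no p value is given. Tnn had 14.9, 2.19 and 4.77 CPM in control and 2.96, 0.602 and 0.608 CPM in senescent replicates 1, 2 and 3, with overlapping groups (limma, adjusted p = 0.0512).

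Fibrillin-1, the product of Fbn1, is the main structural protein of microfibrils and also holds latent TGF-beta complexes in the matrix. Fbn1 lies on chromosome 2 from 125300594 to 125507993 on the minus strand. It had 6140, 4700 and 6778 CPM in control replicates 1, 2 and 3 and 2742, 2131 and 2176 CPM in senescent replicates 1, 2 and 3. The lowest control library was above the highest senescent library. Fbn1 fell by 1.31 on the log2 scale (SE 0.20, 95% confidence interval -1.77 to -0.86, adjusted p = 0.00168 by limma), and by 0.76 after quantile normalization. Removal of any single library gave log2 fold changes between -1.47 and -1.20. The predicted gene Gm9913 overlaps 20.1% of the exon bases of Fbn1 on the opposite strand and had 3.46 to 6.66 CPM, and the use of strand in counting is not given in the sources used here.

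Eln, which encodes tropoelastin, the soluble precursor of elastin, lies on chromosome 5 from 134702593 to 134747323 on the minus strand. Its 33.9, 9.85 and 50.5 CPM in control replicates 1, 2 and 3 stood against 11.7, 12.05 and 11.2 CPM in senescent replicates 1, 2 and 3. Control libraries were widely spread, with a coefficient of variation of 65.1%, and senescent libraries were close together, with 3.51%. Control replicate 2 lay below all senescent libraries, so the groups overlapped. The log2 fold change was -1.11 (95% confidence interval -2.29 to 0.06, adjusted p = 0.109 by limma) and did not pass the test. Without control replicate 2 it was -1.79 (adjusted p = 1.78e-04 by limma), without control replicate 3 it was -0.64 (adjusted p = 0.299 by limma), and with all 6 libraries it was -1.43 in the quasi-likelihood test of edgeR (adjusted p = 0.0469). Control replicate 2 also had the lowest level of the tenocyte marker Tnmd among control libraries, 10.04 CPM against 29.7 and 47.0 CPM, and the highest Mki67, 247 CPM against 125 and 100.5 CPM. The part of these in the Eln values was not tested.

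Fn1 lies on chromosome 1 from 71585520 to 71653200 on the minus strand. The gene had 25876, 20622 and 20519 CPM in control replicates 1, 2 and 3 and 21641, 19588 and 17101 CPM in senescent replicates 1, 2 and 3. The groups overlapped, because senescent replicate 1 exceeded control replicates 2 and 3. The log2 fold change was -0.20 (95% confidence interval -0.91 to 0.51, adjusted p = 0.623 by limma), and it was 0.01 when libraries were scaled by their totals alone. A change of 2-fold in either direction lies outside this interval.

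Thrombospondins are secreted glycoproteins that bind receptors such as CD47, restrain blood vessel growth and, in the case of thrombospondin-1, can activate latent TGF-beta. Thbs1 (chromosome 2 from 118111876 to 118127133, plus strand) had 13850, 18235 and 16222 CPM in control and 13062, 12903 and 12720 CPM in senescent replicates 1, 2 and 3. All senescent libraries lay below all control libraries, but control replicate 1 was only slightly above the senescent libraries. Its log2 fold change of -0.31 did not pass the test (95% confidence interval -0.91 to 0.29, adjusted p = 0.352 by limma), though DESeq2 on the recovered reads gave -0.28 with an adjusted p of 0.0494. The sign turned under quantile normalization, to 0.27.

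Thbs2 (chromosome 17 from 14665500 to 14694235, minus strand) had 3542, 3136 and 3927 CPM in control and 3498, 2886 and 2852 CPM in senescent replicates 1, 2 and 3. Senescent replicate 1 lay among the control libraries. The log2 fold change was -0.20 (95% confidence interval -0.57 to 0.17, adjusted p = 0.339 by limma), with 0.01 after scaling by library totals and 0.20 after quantile normalization. Within a library, the level of Thbs1 per kilobase was 4.51 to 6.71 times that of Thbs2 in control and 4.31 to 5.16 times in senescent libraries, and these ranges overlapped.

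Sparc encodes a collagen-binding glycoprotein that takes part in collagen assembly, and lies on chromosome 11 from 55394500 to 55423183 on the minus strand. It had 9604, 5141 and 7443 CPM in control replicates 1, 2 and 3 and 5571, 4206 and 4256 CPM in senescent replicates 1, 2 and 3. Only control replicate 2 fell within the senescent range. The log2 fold change was -0.63 (95% confidence interval -1.25 to -0.01, adjusted p = 0.0895 by limma). With the replicate number as a block it was called lower (adjusted p = 0.0301), as it was without control replicate 2 (log2 fold change -0.87, adjusted p = 0.01), while without control replicate 1 the value was -0.42 (adjusted p = 0.231). After quantile normalization the value was 0.08, the only 1 of 17 alternatives in which the sign turned. After scaling by library totals alone it was -0.41.

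Postn encodes periostin, a matrix protein of injured and collagen-rich tissue, and lies on chromosome 3 from 54361109 to 54391037 on the plus strand. The libraries had 3297, 2049 and 2220 CPM in control and 2252, 1380 and 1395 CPM in senescent replicates 1, 2 and 3. The highest senescent library, replicate 1, was above control replicates 2 and 3. Unpaired, the log2 fold change of -0.60 did not pass the test (95% confidence interval -1.18 to -0.01, adjusted p = 0.0871 by limma). Between libraries with the same replicate number the ratio of senescent to control was 0.683, 0.673 and 0.629, and with the replicate number as a block Postn was called lower (adjusted p = 0.00503). It was also called lower without control replicate 2 (-0.73, adjusted p = 0.0436) and without senescent replicate 1 (-0.83, adjusted p = 0.0259). The value was smaller without control replicate 1 (-0.39, adjusted p = 0.226) and after quantile normalization (-0.23, adjusted p = 0.462), where Postn was not called.

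Vcan encodes versican, a large chondroitin sulfate proteoglycan that binds hyaluronan, and lies on chromosome 13 from 89655312 to 89742509 on the minus strand. It had 784, 731 and 803 CPM in control and 1001, 778 and 847 CPM in senescent replicates 1, 2 and 3. Senescent replicate 2 lay within the control range. The log2 fold change was 0.17 (95% confidence interval -0.09 to 0.44, adjusted p = 0.250 by limma). Vcan passed the test after scaling by library totals alone, with 0.39 (adjusted p = 0.0238), and after quantile normalization, with 0.38 (adjusted p = 0.0326), the former beside a median of 0.17 for all genes tested.

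**Figure D3:**
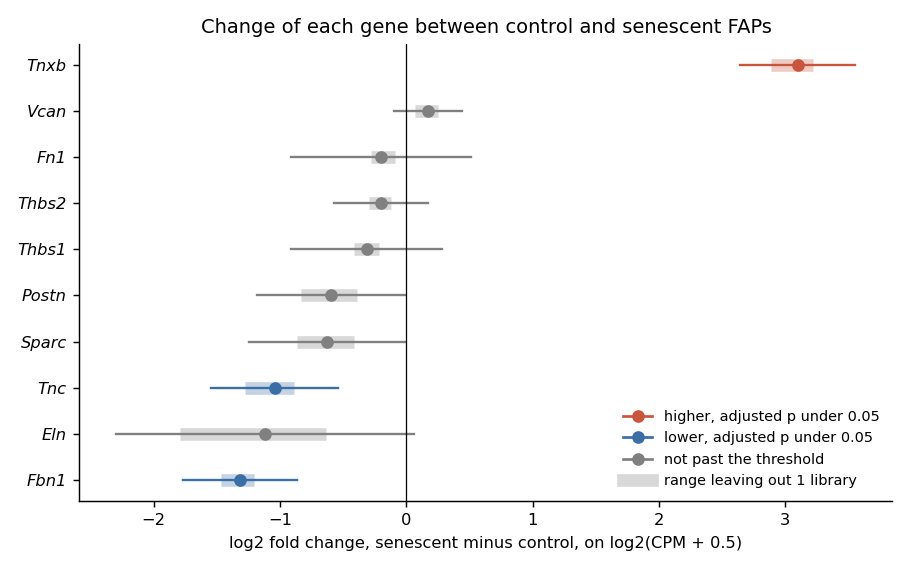
Log2 fold change of each gene, senescent minus control, on log2(CPM + 0.5), as a point with its 95% confidence interval from limma (thin line) and the range of values when each library was left out in turn (broad band). The interval of Tnxb lies fully to the right of 0 and those of Fbn1, Tnc, Sparc and Postn fully to the left, the last 2 by 0.01 and without passing an adjusted p of 0.05, with Eln having the widest interval and band.

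The spread within groups had a common feature. In senescent FAPs, replicate 1 had the highest CPM for 8 of the 10 genes, all but Tnxb and Eln, against 38.3% of all genes tested. In control FAPs, replicate 2 had the lowest CPM for 6 of the 10, namely Thbs2, Sparc, Postn, Vcan, Fbn1 and Eln, against 38.9% of all genes tested. The ratios between libraries with the same replicate number were below 1 in all 3 comparisons for Fn1, Thbs1, Thbs2, Tnc, Sparc, Postn and Fbn1, above 1 in all 3 for Tnxb and Vcan, and on both sides for Eln (0.344, 1.22 and 0.222). The share of all genes tested with such ratios was not computed, so nothing particular to the 10 genes can be read from them.

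**Figure D4:**
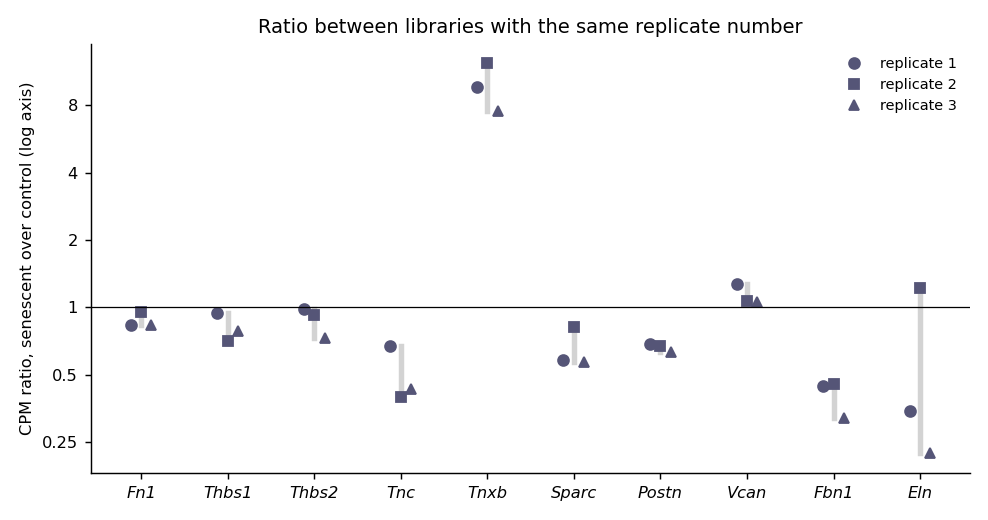
Ratio of CPM in senescent over control FAPs (log axis) between libraries with the same replicate number, with a symbol per number and a grey bar over their range. The 3 ratios of Postn lie close together, at 0.629 to 0.683, and Eln falls on both sides of 1.

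The share of called genes in 4 lists of related genes is to be read against the 46.1% of all genes tested that were called, 21.8% as higher and 24.3% as lower. Of 19 other genes of elastic fibres, 18 were tested, with 1 higher, 8 lower and 9 not past the threshold of an adjusted p under 0.05, and a median log2 fold change of -0.36 against -0.03 for all genes tested. The 9 called of 18 were near the share of all genes. Fbn2, which encodes the fibrillin of developing tissue, had 118, 50.4 and 175 CPM in control and 16.0, 14.5 and 12.9 CPM in senescent replicates 1, 2 and 3. Its log2 fold change was -2.77 (SE 0.39, adjusted p = 0.00137 by limma), so that the level of Fbn1 per kilobase went from 42.3 to 101.5 times that of Fbn2 in control libraries to 160 to 187 times in senescent libraries. Emilin1 and Emilin2, which encode glycoproteins associated with elastic fibres, fell by 0.63 and 0.38 on the log2 scale (limma, adjusted p = 0.0110 and 0.00490), the latter no longer past the threshold after scaling by library totals (adjusted p = 0.104). Lox, which encodes the enzyme that crosslinks elastin and collagen and had the highest mean level per kilobase in the list, fell by 0.59 (limma, adjusted p = 0.0484) and lost its call in 10 of 17 alternatives. Efemp1, which encodes fibulin-3, was the single gene called higher. It went from 601 ± 141 to 1389 ± 222 CPM (SD, n = 3 each), a log2 fold change of 1.22 (adjusted p = 0.00205 by limma).

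In the matricellular list, 18 of 19 genes were tested, with 4 higher, 4 lower and 10 not past the threshold (median log2 fold change -0.27), again near the 46.1% called among all genes tested. Of the higher genes, Tnr and Spock1 reached 0.5 CPM, the level needed for testing, only in senescent libraries. Wisp1, which encodes a secreted CCN family protein, fell by 1.11 on the log2 scale (limma, adjusted p = 1.84e-04), from 374, 418 and 379.7 CPM in control to 194, 181 and 169 CPM in senescent replicates. Cyr61, another CCN gene, fell by 0.60 (limma, adjusted p = 0.00432), whereas Ctgf, of the same family, had a log2 fold change of 0.11 (limma, adjusted p = 0.652). Spp1, which encodes osteopontin, had 331, 2041 and 384 CPM in control and 2991, 3891 and 4096 CPM in senescent replicates 1, 2 and 3, so that control replicate 2 stood well above the other control libraries. It rose by a log2 fold change of 2.51 (limma, adjusted p = 0.0140), with 3.35 without control replicate 2, 1.99 in edgeR and 2.03 in DESeq2, and its call was lost without senescent replicate 3 (adjusted p = 0.0552). The relatives of the thrombospondins, Thbs3, Thbs4 and Comp, had log2 fold changes of -0.35, -0.23 and -0.38, none past the threshold.

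Of 17 genes that make, bind or cut the hyaluronan and versican matrix, 11 were tested, with 4 higher, 3 lower and 4 not past the threshold (median log2 fold change -0.02), beside 21.8% higher and 24.3% lower among all genes tested. Has3, among the higher genes, reached the 0.5 CPM needed for testing only in senescent libraries. Among the ADAMTS proteases that can cleave versican or aggrecan, Adamts5 rose by 1.06 (adjusted p = 0.00599) and Adamts15 by 1.05 (adjusted p = 0.0104), while Adamts9 fell by 1.35 (adjusted p = 0.00156) and Adamts4 by 1.08 on the log2 scale (adjusted p = 0.00180, all by limma). Adamts1 was called higher as well, with a log2 fold change of 0.69 (limma, adjusted p = 0.0173). Has2, which encodes a hyaluronan synthase, had 437 ± 159 CPM in control and 407 ± 40.3 CPM in senescent FAPs (SD, n = 3 each), and the hyaluronan receptor gene Cd44 had a log2 fold change of -0.02 (limma, adjusted p = 0.895).

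Of 17 receptor genes for these proteins, 15 were tested, with 3 higher, 5 lower and 7 not past the threshold (median log2 fold change 0.08), a share of called genes near the 46.1% of all genes tested. Itga5, which encodes the alpha chain of the classical fibronectin receptor, had 2723, 2822 and 2437 CPM in control and 1373, 1078 and 989.6 CPM in senescent replicates 1, 2 and 3. It fell by 1.23 on the log2 scale (SE 0.15, adjusted p = 8.06e-04 by limma), with the groups fully apart, while its partner chain Itgb1, with the highest mean level per kilobase in the list, had a log2 fold change of -0.43 (limma, adjusted p = 0.0746, and 0.0347 with the replicate number as a block). Itgav, which encodes the alpha-v chain, and Itgb3, which encodes one of its partners, each fell by 0.52 on the log2 scale (limma, adjusted p = 0.0162 and 0.0473). Itgb5, another partner of the alpha-v chain, rose by 0.84, the syndecan gene Sdc1 by 0.47 and Stab1, which encodes a scavenger receptor that takes up SPARC, by 0.99 (limma, adjusted p = 0.00157, 0.00251 and 0.00268). Stab1 was at 1.14 ± 0.133 CPM in control and 2.78 ± 0.447 CPM in senescent FAPs (SD, n = 3 each), and its rise stood beside that of the leukocyte markers given above, whose part in it was not tested.

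**Figure D5:**
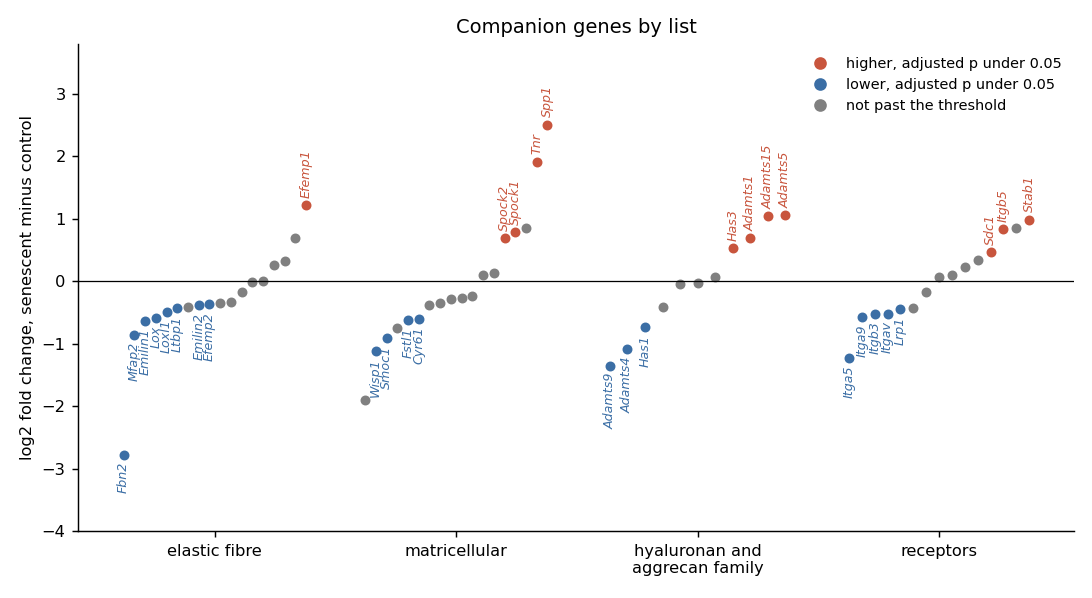
Log2 fold change (senescent minus control, vertical axis) of each tested gene of 4 companion lists, sorted within its list, with names for genes past an adjusted p under 0.05. Among the named genes of the elastic fibre list 8 lie below 0 and 1 above.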

How the data were processed

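FAPs were sorted by magnetic beads from limb muscles of young mice, cultured, and sequenced in 6 libraries, 3 per group. The authors prepared TruSeq stranded mRNA libraries, sequenced them on an Illumina HiSeq and deposited 1 signal per gene and library, CPM scaled by the effective library size, without pooling. The submitters' processing notes name edgeR 3.10, R 3.6.0 and mm10. The aligner, counting tool, annotation and filter on low counts are not given in the sources used here.

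Each value was a whole multiple of 1 read within 0.01 reads, so whole reads were recovered for 100% of values. A line that names no gene held 0.0041% to 0.0070% of reads and was left out. No replicates repeated each other (chi-square per gene 14.9 to 149). The plan assumed CPM, and the values proved to be a normalized signal, for which the planned test also holds. Testing used limma 3.58.1 under R 4.3.3, two-sided and with a variance trend, on log2(CPM + 0.5) of genes that reached 0.5 CPM in 3 or more libraries, with Benjamini-Hochberg adjustment, and a fold change on this scale understates that of genes with few reads. Alternatives were other pseudocounts, filters and scalings, no trend, each library left out, the replicate block, and count models of the recovered reads (DESeq2 1.42.0 and edgeR 4.0.16). The labels do not say whether equal replicate numbers pair the libraries, and the main test used no pairing. Deviations from the group means correlated over genes by 0.537, 0.308 and 0.207 for numbers 1, 2 and 3. For unlike numbers the correlations were -0.357 to 0.153, the highest between control replicate 2 and senescent replicate 3. The code was tested on simulated data. The 10 genes and the lists were chosen with earlier results of these data known. In each companion list the 4 tested genes with the smallest p and the gene with the highest mean level per kilobase were named, and other names were chosen after the values were seen. The other marker lists summed, in control and senescent libraries, to 12350 to 23570 and 5883 to 7636 CPM for FAPs, 5.16 to 7.21 and 5.48 to 7.39 CPM for endothelium, 15.2 to 19.5 and 24.3 to 31.3 CPM for myogenic cells, 279 to 380.1 and 190.5 to 204 CPM for mural cells, 3.28 to 7.34 and 8.18 to 10.6 CPM for glia, and 102 to 231 and 82.2 to 176 CPM for tenocytes. Most of the FAP sum in control libraries was Col1a1, with a mean of 15545 CPM in control and 3116.5 CPM in senescent libraries. Of the 8 FAP markers, 5 were called higher. None of the 4 adipocyte markers was listed.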

Additional observations from a re-analysis of the deposited data

How the results depend on the processing

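The direction and call of Tnxb, Tnc and Fbn1 held under all 17 alternatives, with log2 fold changes from 2.89 to 3.33, from -1.27 to -0.65 and from -1.47 to -0.76. Of 492 recomputed log2 fold changes of named genes, 457 kept their direction and side of the threshold. Most of the companion genes among them were named for a small p in these same data. The count was therefore partly set by that choice and does not measure robustness. Both numbers include 16 values of Tnr, whose test could not have come out as lower. Signs turned after scaling by library totals for Fn1 (0.015), Thbs2 (0.013) and Has2 (0.17), after quantile normalization for Thbs1 (0.27), Thbs2 (0.20), Sparc (0.080) and Has2 (0.15), and without single libraries for Has2 (-0.29 to 0.23, the latter without control replicate 2). By library totals alone, 5056 genes were higher and 1933 lower, and 2 of the 10 genes were higher. After quantile normalization 2 of the 10 were higher, and 1 passed the threshold of the volcano plot. Of all 14776 genes tested, 3163 were then higher and 1451 passed that threshold. The number of lower genes among the 10 was 4 with the replicate block, which changed no call of Tnxb, Tnc or Fbn1, 5 with DESeq2 (Thbs1, Sparc and Postn in addition), 3 with edgeR (Eln in addition), and 2 to 5 on removal of single libraries, the 5 without control replicate 2. Lower among all 14776 genes tested were 3947 with the block, 3440 with DESeq2 and 2416 to 3875 on removal of single libraries. On removal of single libraries, the number of higher genes among all genes ranged from 2130, without senescent replicate 2, to 3405, without control replicate 2, and edgeR on the recovered reads called 3076 higher and 3556 lower. The causes were not tested. The lowest count of the 10 genes was 134 reads, for Tnxb in a control library.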
